A study of Mus musculus with 15 samples.

Results

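Nuclear genes of oxidative phosphorylation were examined in chromatin accessibility profiles of mouse pancreatic islets. Members were taken by symbol: peaks assigned by the authors to genes whose names start with Nduf (complex I), Uqcr (complex III) or Atp5 (complex V), with Sdh followed by a, b, c or d (complex II), or with Cox followed by a digit (complex IV), each position counted once. The rule also takes in assembly factors that carry these prefixes. In the comparison of genotypes after pancreatectomy, 63 peaks of 60 member genes were listed, of 13111 peaks in all. The other 3 comparisons held 42 of 7826, 61 of 12767 and 40 of 8070 peaks. Across the 4 comparisons 61 genes had at least 1 peak. RefSeq holds 109 protein-coding mouse symbols that fit the rule, of which 49 had no listed peak in any comparison, among them those of Sdha, Cox4i1, Cox5a, Atp5a1 and Atp5c1.

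The respiratory chain sits in the inner mitochondrial membrane. Complexes I (NADH dehydrogenase) and II (succinate dehydrogenase) pass electrons from fuel to ubiquinone, complex III (the cytochrome bc1 complex) passes them on to cytochrome c, and complex IV (cytochrome c oxidase) passes them to oxygen. Complexes I, III and IV pump protons as they do so, and complex V (ATP synthase) makes ATP from the gradient. In pancreatic β cells, ATP made in this way from glucose closes potassium channels of the plasma membrane and so starts insulin release. Most of the subunits are encoded in the nucleus, and only these genes are covered by the rule.

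The study used male mice aged 3 months that all carried Arid1aFl/Fl and MIP-rtTA, whose doxycycline-dependent activator is expressed from an insulin promoter. Arid1a encodes a subunit of the SWI/SNF (BAF) complex, which moves nucleosomes. The βKO mice (Arid1aFl/Fl; MIP-rtTA; TRE-Cre) also carried a Cre under that activator, and the control mice (Arid1aFl/Fl; MIP-rtTA) did not. Every mouse drank doxycycline at 1 g/L for 2 weeks, and partial pancreatectomy (PPx, in which part of the pancreas is cut away) was done 1 week after it was stopped. The 4 groups were βKO islets 6 days after PPx (4 libraries), βKO islets before PPx (3 libraries), control islets 6 days after PPx (4 libraries) and control islets before PPx (4 libraries). Whole islets were profiled by ATAC-seq, in which a transposase cuts open chromatin, so other islet cells are included, and fewer cells of a type cannot be told apart from less open chromatin per cell. The authors' deposited tables give 1 value per group at each peak, the log2 concentration, and not the value of each library. The spread between mice therefore enters through the standard error (SE) implied by the authors' p-value. The number of libraries in which a peak was called is given beside it.

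Promoter sequence was available from RefSeq (GRCm38.p6) for 53 of the 61 member genes, as windows of 300 bases that run from 250 before to 50 after the start. For the member genes with a peak within 1 kb of a start, 52 such windows of 49 genes were searched on both strands for 5 motifs, each counted on its own. These were the NRF1 motif GCGCANGCG, the ETS (GABP) motif CCGGAAG, the YY1 motif AAGATGGC, the ERR motif TCAAGGTCA and the GC box GGGCGG. NRF1 and GABP are activators of nuclear genes for mitochondrial proteins. The ETS motif occurred in 32.7% of the member windows, against 16.4% of the 7410 windows of all genes with a peak within 1 kb and 8.86% of all 32851 windows. The YY1 motif occurred in 17.3% of member windows, against 3.87% and 2.75%. The NRF1 motif occurred in 19.2%, against 13.0% and 6.25%, and the ERR motif in 1.92%, against 0.243% and 0.423%. The GC box was less frequent in member windows (53.8%) than in those of all genes with a peak (63.8%), and more frequent than in all windows (35.7%). These shares describe letters in the sequence, and no test was made of them. Complex IV had the ETS motif in 6 of its 10 windows, and the YY1 motif was found in 6 of 27 windows of complex I and 3 of 9 of complex V.

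**Figure D1:**
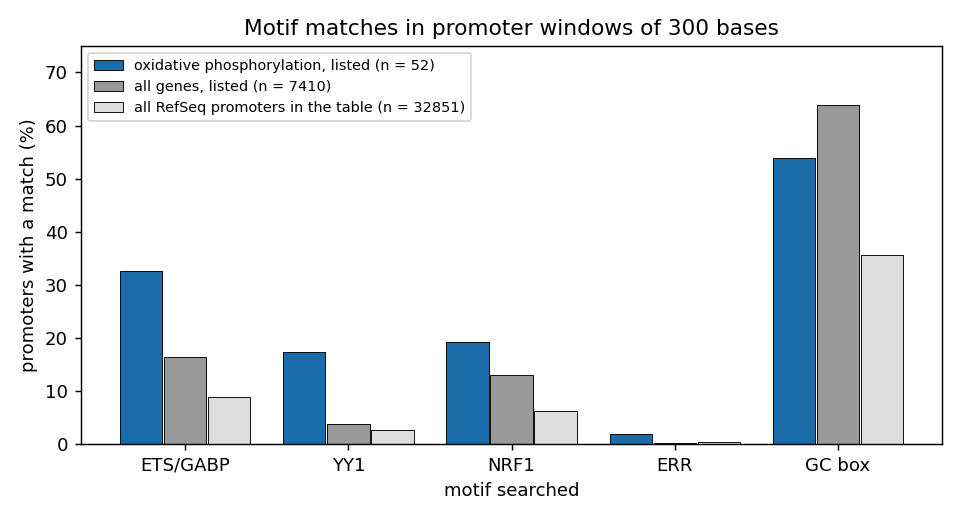
Share of promoter windows of 300 bases (y axis, percent) that hold each of 5 motifs on either strand (x axis), for member genes with a listed peak within 1 kb (left bars, 52 windows), all genes with such a peak (middle bars, 7410 windows) and all windows of the RefSeq table (right bars, 32851 windows). The ETS motif was in 32.7% and the YY1 motif in 17.3% of member windows, against 16.4% and 3.87% in windows of all genes with such a peak.

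In 7 of the 52 member windows (13.5%) the YY1 motif lay on the gene's own strand within the 50 bases after the start, beginning between bases 11 and 34. The share was 1.74% in the windows of all genes with a peak within 1 kb and 0.865% in all windows. These 7 sites are shown because of that shared position, 5′ to 3′ on the gene's strand with the motif in capitals, and whether the ATG inside the motif is the start codon was not examined. They lie at Atp5j2 (chr5:145191503-145191528, minus strand), Ndufa3 (chr7:3617385-3617410, plus strand), Ndufa9 (chr6:126849100-126849125, minus strand), Ndufaf8 (chr11:120098934-120098959, plus strand), Ndufc1 (chr3:51408918-51408943, minus strand), Ndufs6 (chr13:73328434-73328459, minus strand), Ndufs7 (chr10:80249463-80249488, plus strand), all GRCm38.p6.
Atp5j2: ccaggacttcAAGATGGCgtcactcg
Ndufa3: cgccaagaacAAGATGGCcgggagta
Ndufa9: attgtgggagAAGATGGCggccgccg
Ndufaf8: ggcagggcccAAGATGGCggcgccct
Ndufc1: cctgcggaacAAGATGGCgccgtccg
Ndufs6: ggtcaccggcAAGATGGCggcggtgc
Ndufs7: ggccgaggccAAGATGGCggcgctgg
Apart from Atp5j2, a membrane subunit of ATP synthase, these genes encode subunits or assembly factors of complex I. None of the 7 had a peak that passed the authors' FDR of 0.05 in any comparison described here. Over all peaks 9.88% passed with a higher value between genotypes after PPx, and 7.44% between times in βKO islets. At such shares 0 of 7 does not set these genes apart. In these comparisons Ndufs7 had no listed peak, and the weakly covered Atp5j2 peak could not be called.

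The 250 bases before the start are shown for 4 genes whose promoters opened in at least 1 comparison, so that their motif content can be compared. They are those of Ndufb6 (chr4:40279422-40279671, minus strand), Uqcrh (chr4:116075071-116075320, minus strand), Atp5b (chr10:128083057-128083306, plus strand) and Uqcr10 (chr11:4704345-4704594, minus strand), RefSeq on GRCm38.p6. Capitals mark the ETS motif (CCGGAAG, or CTTCCGG on the other strand) and the GC box (GGGCGG, or CCGCCC on the other strand). No marked match overlapped another.
Ndufb6: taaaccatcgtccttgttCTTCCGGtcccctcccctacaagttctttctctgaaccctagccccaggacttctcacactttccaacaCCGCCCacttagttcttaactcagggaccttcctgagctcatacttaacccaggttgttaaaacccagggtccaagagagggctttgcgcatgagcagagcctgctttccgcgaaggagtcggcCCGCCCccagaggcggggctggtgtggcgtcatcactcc
Uqcrh: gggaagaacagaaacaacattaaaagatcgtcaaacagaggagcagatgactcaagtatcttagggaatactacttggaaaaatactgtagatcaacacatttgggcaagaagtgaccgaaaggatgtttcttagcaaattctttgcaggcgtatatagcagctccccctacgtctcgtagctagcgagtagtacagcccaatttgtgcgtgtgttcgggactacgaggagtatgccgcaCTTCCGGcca
Atp5b: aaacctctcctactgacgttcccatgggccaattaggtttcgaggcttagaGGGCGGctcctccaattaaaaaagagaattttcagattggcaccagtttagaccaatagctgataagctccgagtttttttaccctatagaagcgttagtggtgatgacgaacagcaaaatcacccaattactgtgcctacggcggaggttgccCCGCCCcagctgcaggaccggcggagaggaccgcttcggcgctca
Uqcr10: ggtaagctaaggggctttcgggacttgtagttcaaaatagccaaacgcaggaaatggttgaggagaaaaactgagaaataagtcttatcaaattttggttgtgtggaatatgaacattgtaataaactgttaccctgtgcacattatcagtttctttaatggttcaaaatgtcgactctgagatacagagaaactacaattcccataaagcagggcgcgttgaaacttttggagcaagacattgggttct
Ndufb6 held an ETS motif and 2 GC boxes, Uqcrh an ETS motif 10 bases before the start, Atp5b 2 GC boxes, and Uqcr10 none of the 5 motifs. Among the 8 windows of opened members with a RefSeq sequence, 0 held the NRF1 motif, 0 the YY1 motif, 2 the ETS motif and 5 the GC box.

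After PPx, promoters of oxidative phosphorylation genes had higher values in βKO than in control islets, by about as much as promoters at large. Higher values were also found at 90.3% of all peaks, whose median change was 0.61. The normalization and depth are not known, so more open chromatin cannot be told apart from a shift in scale between the groups. All 55 member peaks within 1 kb of a start had a higher log2 concentration in βKO islets per the authors' deposited table, with changes between 0.09 and 1.31. Their median change was 0.67, and that of all 7650 promoter peaks within 1 kb was 0.72, of which 97.5% were higher in βKO islets. The median implied SE of a member was 0.39, so the change at a single member was often smaller than 2 SE. Of the 63 member peaks, 9 opened (authors' FDR under 0.05) and 1 closed, and all 9 were promoters. Over all 13111 peaks 9.88% opened and 0.0839% closed, and 14.3% of the members opened. Promoters are more often called than other peaks, and 14.9% of all promoter peaks opened, against 16.4% of the member promoters. At peaks of the same annotation class and the same one of 10 bins of concentration as the members, 12.4% opened. The authors' FDR was set to exactly 1 at 18 of the members, the weakly covered ones, which could therefore not be called.

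Complex I had 28 promoter peaks, with a median change of 0.675, and 5 of them opened. Ndufb6, an accessory subunit of the membrane arm, stood at a log2 concentration of 4.37 in βKO and 3.13 in control islets in the authors' deposited table, a change of 1.24 ± 0.40 (implied SE) at an FDR of 0.0363. Its peak was called in 3 of 4 βKO and 1 of 4 control libraries. The strong promoter of Ndufa4, first described as a complex I subunit and later assigned to complex IV, had 6.20 in βKO and 5.25 in control islets in the authors' deposited table, a change of 0.95 ± 0.33 at an FDR of 0.0423. Assembly factors were among the called genes too. Ndufaf7, a methyltransferase, had 5.84 in βKO and 4.75 in control islets in the authors' deposited table (change 1.09 ± 0.35, FDR 0.0348). For Ndufaf6 the authors' deposited table gave 5.02 in βKO and 4.02 in control islets (change 1.00 ± 0.36, FDR 0.0436). Of the core subunits, 5 did not pass the threshold, with changes in the authors' deposited table of 0.96 ± 0.38 at Ndufs1, 0.78 ± 0.31 at Ndufv2, 0.89 ± 0.49 at Ndufs3, 0.40 ± 0.47 at Ndufv1 and 0.37 ± 0.34 at Ndufs8. Ndufs1, Ndufv1 and Ndufv2 make up the module that takes electrons from NADH, and Ndufs3 and Ndufs8 lie in the arm that carries them on. Among the promoter peaks of the complex, Ndufa5 had the strongest (6.37 in βKO and 5.61 in control islets) and Ndufv3 the smallest change (0.25 ± 0.46), both from the authors' deposited table.

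Complex II had 3 promoter peaks. Sdhc, one of the membrane anchors of succinate dehydrogenase, had the largest change of any member promoter. The authors' deposited table gave it 4.24 in βKO and 2.93 in control islets, a change of 1.31 ± 0.43 at an FDR of 0.0374, with the peak called in 4 of 4 βKO and 0 of 4 control libraries. A second Sdhc peak, in the 3′ UTR, had 2.68 in βKO and 3.03 in control islets in the authors' deposited table, a change of −0.36 ± 0.51. Sdhb, the iron-sulfur subunit, changed by 0.30 ± 0.42 and the assembly factor Sdhaf1 by 0.66 ± 0.34 in the authors' deposited table, neither past the threshold.

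Complex III had the highest median change, 0.88 over 6 promoters, and 2 of them opened. Uqcrq, a small subunit of the bc1 complex, had the smallest FDR of any member. It stood at 5.22 in βKO and 4.07 in control islets, a change of 1.15 ± 0.34 with an FDR of 0.0272, per the authors' deposited table. Uqcr10, another small subunit, had 4.05 in βKO and 2.89 in control islets in the authors' deposited table, a change of 1.16 ± 0.42 at an FDR of 0.0452, and was called in 4 of 4 βKO and 0 of 4 control libraries. The remaining members did not pass. In the authors' deposited table Uqcrh, the hinge protein, changed by 0.95 ± 0.37, Uqcrfs1, the Rieske iron-sulfur protein, by 0.81 ± 0.33, and the core protein Uqcrc2 by 0.75 ± 0.36. The other core protein, Uqcrc1, had a value of 3.53 in βKO and 3.43 in control islets in the authors' deposited table, a change of 0.10 ± 0.44.

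Complex IV had 10 promoter peaks with a median change of 0.525, and 1 opened. This was Cox7a2, a small structural subunit, at 5.43 in βKO and 4.45 in control islets in the authors' deposited table (change 0.98 ± 0.34, FDR 0.0424). Cox7c, another small subunit, had the strongest peak of the complex, with 6.35 in βKO and 5.82 in control islets and a change of 0.53 ± 0.34 in the authors' deposited table. Cox15, an enzyme of haem A synthesis, changed by 1.02 ± 0.49, Cox5b by 0.46 ± 0.46 and the assembly factor Cox14 by 0.39 ± 0.38, per the authors' deposited table, none past the threshold. Complex V had 8 promoter peaks with a median change of 0.61, and none passed the authors' FDR, although 2 had an unadjusted p under 0.05. These 2 were Atp5j, a stalk subunit, at 6.45 in βKO and 5.64 in control islets (change 0.82 ± 0.32), and Atp5b, the catalytic β subunit, at 5.33 in βKO and 4.58 in control islets (change 0.75 ± 0.30) in the authors' deposited table. The smallest change of the complex was 0.09 ± 0.44 at Atp5k, with 3.53 in βKO and 3.45 in control islets in the authors' deposited table.

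**Figure D2:**
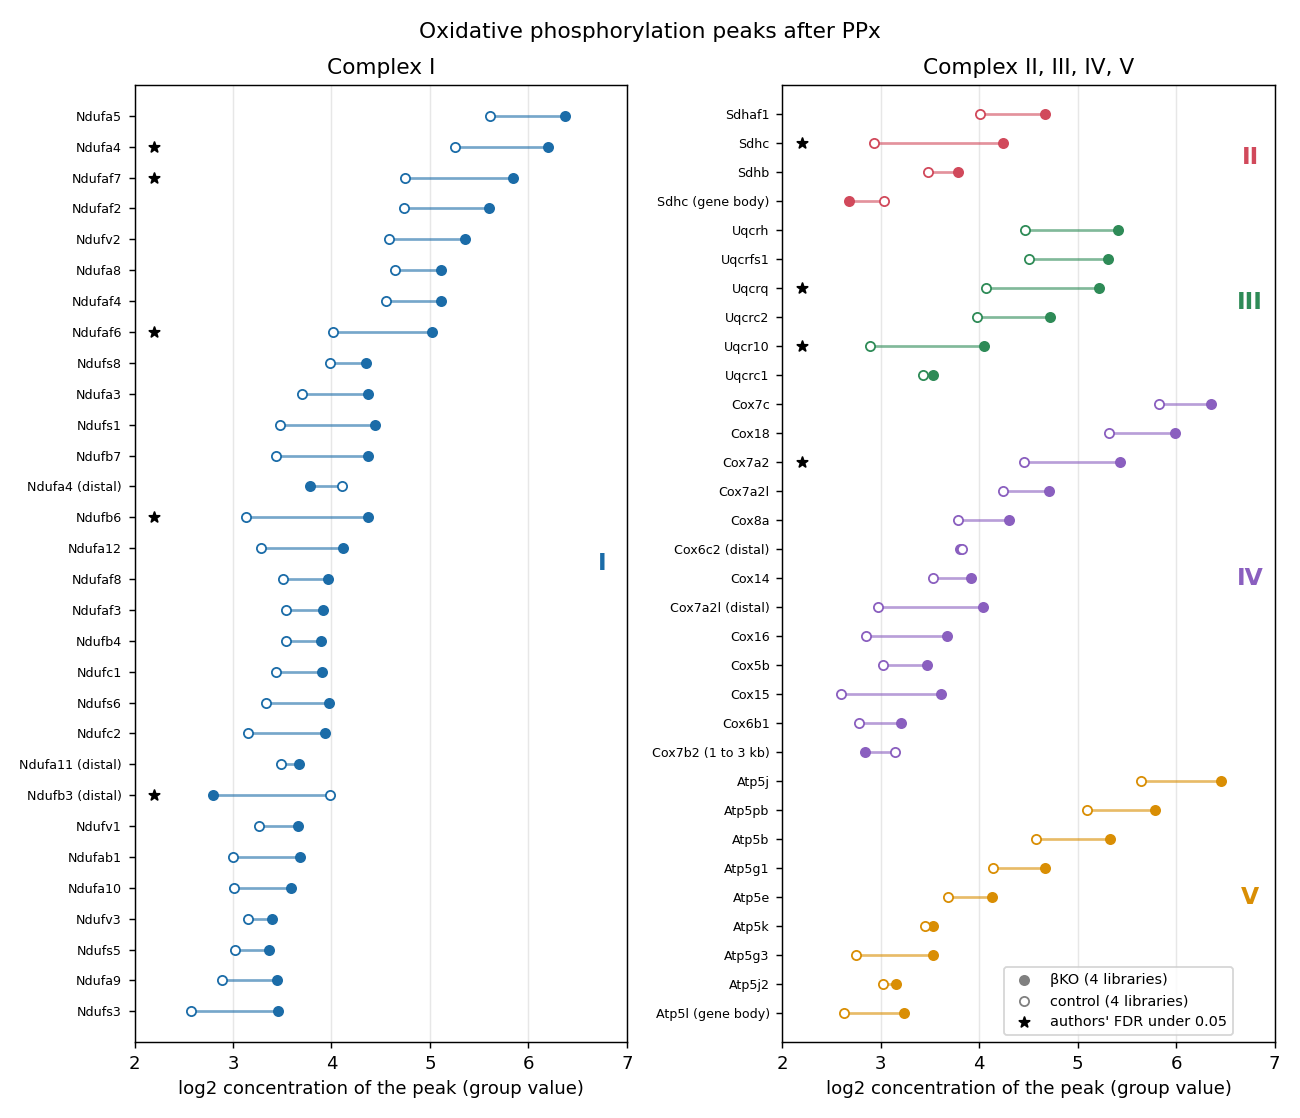
Log2 concentration (x axis) of member peaks after PPx in βKO (filled points) and control islets (open points), by complex and from strong to weak. Each point is the authors' value for a group of 4 libraries, and stars mark peaks with an authors' FDR under 0.05. All peaks drawn at promoters within 1 kb lie higher in βKO islets, while the distal Ndufb3 peak lies lower (2.80 in βKO and 3.99 in control islets).

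Peaks were also called in more βKO libraries, but these counts come from the same reads as the concentrations and are not separate support. Member promoters such as Sdhc and Uqcr10, called in 0 control libraries, were listed through the βKO libraries alone. Listing of this kind favours peaks that are higher in βKO islets. Member promoters were called in a mean of 3.20 of 4 βKO libraries and 1.56 of 4 control libraries after PPx. In 43 of the 55 more βKO than control libraries had the peak, and in 0 fewer. Over all 7650 promoter peaks within 1 kb the means were 3.21 of 4 βKO and 1.87 of 4 control libraries, with more βKO libraries at 5267 and fewer at 98. Set against the median of peaks of like concentration and class, the members' median change was −0.07, with quartiles of −0.26 and 0.20. By complex the promoters' median difference from such peaks was −0.02 for I, −0.07 for II, 0.12 for III, −0.16 for IV and −0.145 for V. No test was made of these medians, and the SE of a single member does not measure their spread. Subunits and assembly factors had similar medians, 0.68 over 43 promoters and 0.665 over 12.

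Relative to the median change of the table (0.61), 1 member peak passed an approximate normal test with Benjamini-Hochberg adjustment at 0.05, as did 0.389% of all peaks (51 of 13110). It was the distal Ndufb3 peak, and no member promoter passed. This peak lies at chr1:58613678-58614278 (mm10), between genes, 17714 bp from the nearest end of Ndufb3 and 27581 bp from its start, so that its link to this accessory subunit of complex I is only one of nearness. In the authors' deposited table it had 2.80 in βKO and 3.99 in control islets after PPx, a change of −1.19 ± 0.43 at an FDR of 0.0469. It was called in 0 of 4 βKO and 4 of 4 control libraries, so it was listed through the control libraries alone. Listing of this kind favours a lower value in βKO islets. The adjusted p of this peak relative to the table median was 0.0220. Against the median of peaks of like concentration and class, 0 members passed the same test. Before PPx the genotypes were nearly equal there, with 3.69 in βKO and 3.70 in control islets in the authors' deposited table.

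The remaining peaks away from promoters were few and mixed. Of the 8 member peaks not within 1 kb of a start, 3 were higher in βKO islets, with a median change of −0.165, while the medians of all distal and gene-body peaks were 0.39 and 0.37. In the authors' deposited table the distal peak given to Cox7a2l, which helps join complexes III and IV, had 4.04 in βKO and 2.97 in control islets (change 1.07 ± 0.42, FDR 0.0541). The exonic peak of Atp5l, a membrane subunit of ATP synthase, changed by 0.62 ± 0.51 and the distal peak given to Ndufa11 by 0.18 ± 0.42 in the authors' deposited table. Values below zero stood at the distal Ndufa4 peak (−0.33 ± 0.39), the peak between 1 and 3 kb from Cox7b2 (−0.30 ± 0.50) and the distal peak given to Cox6c2 (−0.03 ± 0.39), which RefSeq lists as a pseudogene, all from the authors' deposited table.

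Before PPx, no member peak passed the authors' FDR between βKO and control islets. The authors' FDR, from DiffBind, was 1 at all 42 members, and 0 members had an unadjusted p under 0.05. Over all 7826 peaks 0.0128% were called, a single peak, which lies in Arid1a, and 246 had an unadjusted p under 0.05. The median change of the members was −0.08 and that of all peaks 0.00. Among the 39 member promoters within 1 kb, 16 were higher in βKO islets, and the median was −0.12 against 0.04 over all such promoters.

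The members with lower coverage and the stronger ones stood on different sides of zero before PPx. The 19 member promoters with a mean concentration below the table median had a median change of −0.36, and 2 of them were higher in βKO islets. All 2167 promoters below that level had a median of −0.06. The 20 stronger member promoters had a median of 0.085, with 14 higher in βKO islets, and all 3128 promoters of that strength had 0.09. At the core subunits of complex I, 1 of 6 promoters was higher in βKO islets, with a median change of −0.455. In the authors' deposited table Ndufv1 had 2.68 in βKO and 3.57 in control islets (change −0.89 ± 0.54), Ndufv2 had 4.04 in βKO and 4.59 in control islets (−0.55 ± 0.42), and Ndufs1 had 3.22 in βKO and 3.77 in control islets (−0.55 ± 0.48). The largest negative value was that of Ndufb4, an accessory subunit, with 2.72 in βKO and 3.67 in control islets and a change of −0.95 ± 0.60 in the authors' deposited table. Each of these 4 changes is under 2 SE. Subunit promoters had a median of −0.28 over 29 and those of assembly factors 0.07 over 10. Neither difference was tested, since no test over the members was made.

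**Figure D3:**
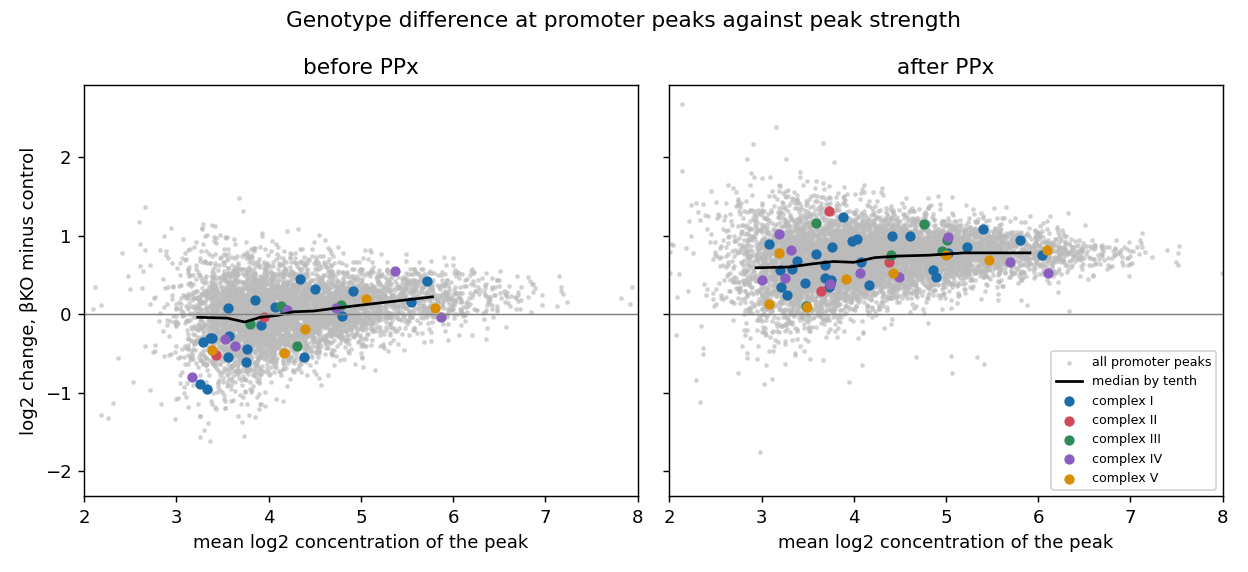
Log2 change of βKO against control islets (y axis) by mean log2 concentration (x axis) at promoter peaks within 1 kb, before PPx (left) and after PPx (right). Grey points are all promoter peaks inside the axes (those beyond the x axis are not drawn), the line joins medians in 10 bins of concentration, and coloured points are the 39 and 55 member promoters by complex. Before PPx 17 of the 19 weaker member promoters lie below zero, and after PPx all 55 lie above it.

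Whether the genotype difference at members changed with PPx was tested directly at the 40 member peaks found in both genotype comparisons, which share no library. The approximate interaction test, relative to each table's median and adjusted over 7503 peaks, called 0% of all peaks and 0 members. At an unadjusted p under 0.05 it gave 1 member, the distal Ndufb3 peak (interaction −1.79 ± 0.64), and 1.72% of all peaks. The next strongest were Uqcrq (0.95 ± 0.52) and Sdhc (1.22 ± 0.67), and no member's adjusted p was below 0.9997. The members' median interaction was 0.24 against 0.03 over all peaks. Over promoters within 1 kb it was 0.255 at members against 0.07 at all such peaks. The interaction was above zero at 29 of the 40 members, and the share above zero over all peaks was not counted. These medians were not tested.

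In βKO islets, values at member promoters were higher after PPx than before, as they were at 97.1% of all peaks. A shift in scale between the groups cannot be told apart here either. All 54 member promoters within 1 kb had higher values after PPx in the authors' deposited table, with changes between 0.23 and 2.19 and a median of 0.965, against 0.86 over all such promoters. Of the 61 member peaks 6 opened (9.84%), as did 7.44% of all 12767 peaks and 8.35% of peaks of like concentration and class. All 6 were promoters, and 11.1% of the 54 member promoters opened, against 9.93% of all promoters within 1 kb. None closed. Member promoters were called in a mean of 3.24 of 4 libraries after PPx and 1.43 of 3 before. Over all 7656 promoters within 1 kb the means were 3.21 of 4 and 1.68 of 3. Promoters such as that of Uqcr10, called in 0 libraries before PPx, were listed through the libraries after PPx alone. Listing of this kind favours peaks that are higher after PPx.

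The 6 opened promoters belonged to complexes I, III and V. For Ndufv2 of the NADH module the authors' deposited table gave 5.36 after and 3.78 before PPx, a change of 1.58 ± 0.40 at an FDR of 0.0230. Ndufs1, of the same module, had 4.45 after and 3.07 before PPx in the authors' deposited table, a change of 1.38 ± 0.43 at an FDR of 0.0394. Atp5b of ATP synthase had 5.34 after and 4.01 before PPx in the authors' deposited table, a change of 1.33 ± 0.37 at an FDR of 0.0282. The other 3 were small subunits of complex III. In the authors' deposited table Uqcrq had 5.22 after and 3.88 before PPx (1.34 ± 0.38, FDR 0.0295), Uqcr10 had 4.05 after and 2.45 before PPx (1.61 ± 0.51, FDR 0.0394), and Uqcrh had 5.36 after and 3.96 before PPx (1.39 ± 0.47, FDR 0.0443). Complex III again had the highest median by complex, 1.265 over 6 promoters, which was 0.39 above peaks of like concentration and class. The corresponding differences were 0.07 for complex I, 0.10 for II, −0.04 for IV and 0.19 for V. The largest single change was at Ndufa10, an accessory subunit of complex I, with 3.59 after and 1.39 before PPx in the authors' deposited table. This peak was called in 2 of 4 libraries after and 0 of 3 before PPx, so it was listed through the libraries after PPx alone. Its change was 2.19 ± 0.64 at p = 0.000658, but the authors' FDR was 1. Relative to the median change of all peaks (0.83), no member passed the approximate normal test, and neither did any other peak (0% of 12767). At an unadjusted p under 0.05 there were 2 members, Ndufa10 above and the distal Ndufb3 peak below that median.

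In control islets, no member peak passed the authors' FDR between the times, and 0% of all 8070 peaks did, by DiffBind. At an unadjusted p under 0.05 there were 1 member and 204 peaks in all. The members' median change was 0.18 and that of all peaks 0.16. The member with the small p was the distal Ndufa4 peak, with 4.16 after and 2.83 before PPx in the authors' deposited table, a change of 1.33 ± 0.42 at p = 0.00144 and an FDR of 0.999. It lies 121868 bp from Ndufa4 and was called in 3 of 4 libraries after and 0 of 4 before PPx. In βKO islets the same peak had 3.78 after and 2.36 before PPx in the authors' deposited table, a change of 1.43 ± 0.58 at an FDR of 0.0680. Among the 37 member promoters within 1 kb, 24 were higher after PPx, with a median change of 0.17. By complex the medians were 0.08 for I, 0.17 for III, 0.11 for IV and 0.32 for V, and the single promoter of complex II, that of Sdhaf1, had 0.35 ± 0.37.

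**Figure D4:**
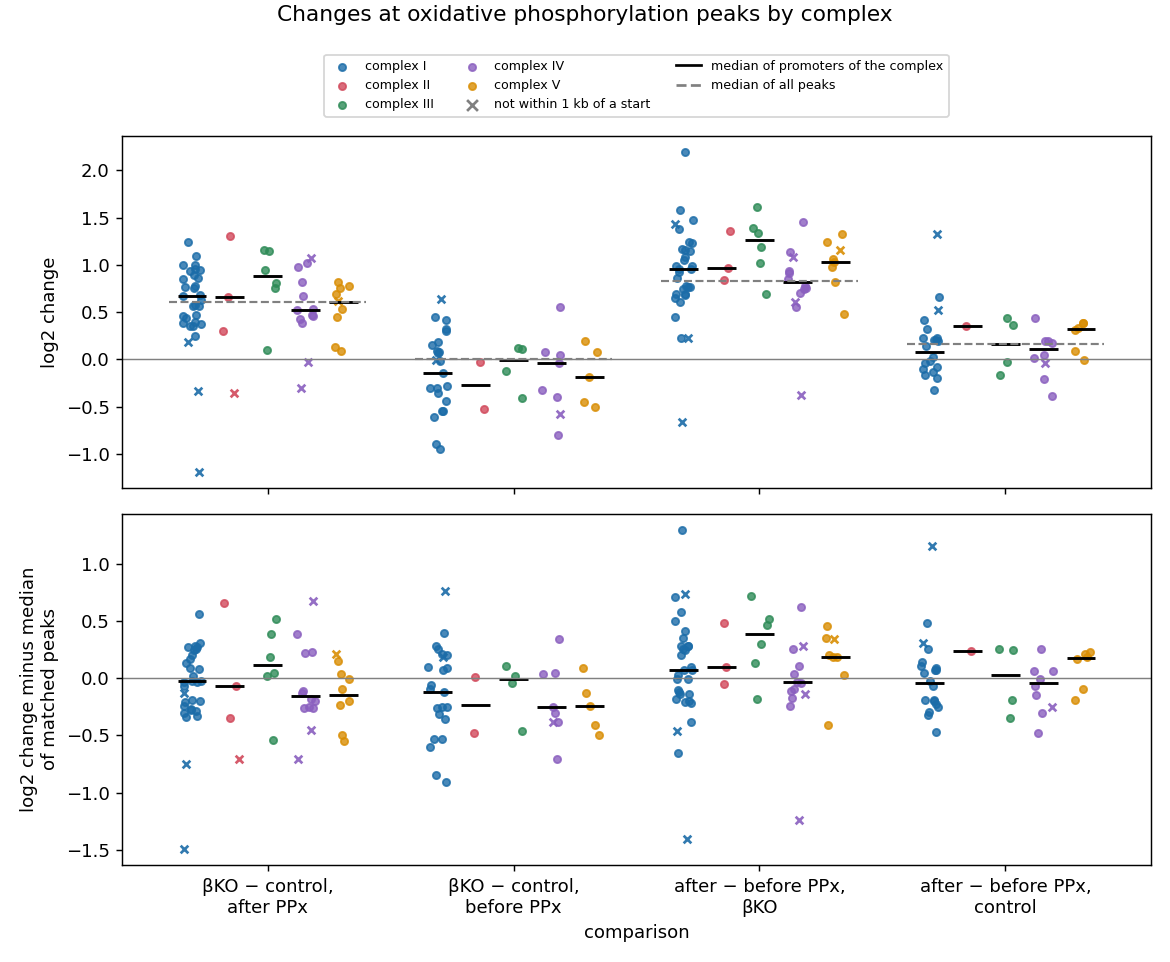
Log2 change at each member peak (upper panel, y axis) and that change minus the median of peaks of like concentration and annotation class (lower panel, y axis) in the 4 comparisons (x axis), by complex. Black bars are medians of the promoters within 1 kb, dashed lines are medians of all peaks, and crosses are peaks elsewhere. In both comparisons that involve βKO islets after PPx the promoters lie above zero in the upper panel, and around zero in the lower one, with complex III highest (0.12 and 0.39).

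The genes of complex III illustrate how the 4 comparisons, which share libraries in pairs, stood side by side. Uqcrq had changes of 1.15 between genotypes after PPx, −0.41 between genotypes before PPx, 1.34 between times in βKO islets and −0.17 between times in control islets. Uqcrh had 0.95, 0.11, 1.39 and 0.44 in the same order, and Uqcrfs1 had 0.81, 0.12, 0.69 and −0.03. All of these are from the authors' deposited tables, and the 2 comparisons with calls use the same βKO libraries after PPx, so they are not independent of each other.

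Some member peaks also hold the start of a neighbouring gene, so that their signal cannot be assigned to the member alone. After PPx 13 of the 55 member promoters (23.6%) did so, against 18.5% of all promoter peaks within 1 kb. The RefSeq starts used lack some genes, among them the opened members Ndufaf6, Sdhc and Uqcrq, so both shares are lower bounds. Among the opened promoters, that of Ndufa4 is shared with Phf14, and that of Uqcr10 with Zmat5. Sharing at the others is not excluded. The peaks of Uqcrh and Lrrc41, of Ndufs1 and Eef1b2, and of Atp5j and Gabpa, which encodes the DNA-binding subunit of GABP, are likewise the same peak.

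Genes of the same pathway outside the symbol rule were called about as often as all peaks between genotypes after PPx. On lists of 102 genes for assembly factors, electron carriers, the tricarboxylic acid (TCA) cycle, transcription and mitochondrial import, 65 genes had 71 peaks after PPx, of which 7 opened between genotypes (9.86%, against 9.88% of all peaks) and 0 closed. The 7 were all promoters within 1 kb, and 14.9% of all such promoters opened. How many of the 71 peaks here, and of the 72 between times below, were promoters was not counted. Their shares therefore cannot be set against those of promoters alone. The median change of the 71 peaks was 0.68, and −0.01 relative to peaks of like concentration and class. The authors' deposited table gave changes of 1.13 at Tmem126a, an assembly factor of complex I, and of 1.29 at Coa7 and 1.04 at Pet100, both of complex IV assembly. The authors' deposited table also gave 0.89 at Pdhb of pyruvate dehydrogenase, 1.11 at Tfb1m, which methylates mitochondrial ribosomal RNA, 1.13 at the coactivator Ppargc1b and 0.89 at the chaperonin gene Hspe1. In βKO islets between the times 13 of 72 peaks opened (18.1%, against 7.44% of all peaks and 9.93% of all promoters within 1 kb) and 0 closed. Their median change was 0.925, and 0.05 relative to peaks of like concentration and class. In the authors' deposited table these were Tmem186 (2.23), Timmdc1 (1.45) and Dmac1 (1.22) for complex I assembly, Coa4 (2.23), Pet117 (1.58) and Lrpprc (1.49) for complex IV, and Coq10a (1.56), Coq3 (1.49) and Coq6 (1.32) of the ubiquinone pathway. The others, also from the authors' deposited table, were Slc25a4 (1.28), the ADP/ATP carrier, Hspe1 (1.23), Ogdh (1.14) of the TCA cycle and the GC-box factor gene Sp1 (1.02). Between genotypes before PPx 0 of 48 peaks and between times in control islets 0 of 52 peaks passed.

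As a check of the tissue, peaks were listed after PPx for 10 of 15 β cell marker genes, including Ins1 and Nkx6-1, and for 4 of 9 markers of other endocrine cells. They were listed for 1 of 10 acinar, 1 of 7 duct, 4 of 7 endothelial, 3 of 7 stromal and 2 of 8 leukocyte markers. Between genotypes after PPx the median change was 0.66 over 19 peaks of β cell markers, 0.70 over 5 of other endocrine markers, 0.675 over 2 of leukocyte, 0.47 over 4 of stromal, 0.265 over 2 of duct and 0.08 over 7 of endothelial markers, and the single acinar peak had 0.08. Between the times in βKO islets, 1 of 18 peaks of β cell markers and 1 of 2 of leukocyte markers opened. These were an intronic peak of Slc30a8 (change 1.56, FDR 0.0484) and a distal peak given to Csf1r (change 2.01, FDR 0.0282). In the authors' deposited table each was called in 2 of 4 libraries after and 0 of 3 before PPx. The part of other cells in the members' changes was not tested. At the floxed gene itself, a peak in exon 9 of Arid1a was higher in βKO islets, with 4.04 in βKO and 0.40 in control islets after PPx and 5.49 in βKO and 1.21 in control islets before PPx, per the authors' deposited tables. Whether this peak lies in the deleted stretch is not given in the sources used here.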

How the data were processed

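ATAC-seq libraries of 15 mice in 4 groups were compared through 4 deposited tables, 1 per comparison, at a peak width of 601 bp. Per the submitters' processing notes, the tools were ChIPseeker, DiffBind, MACS, BWA and cutadapt and the build mm10 (GRCm38). Not given in the sources used here are their settings, the normalization and any shift of reads at the transposase cut. Per the file headers, the deposited tables hold for each peak a mean log2 concentration, a log2 concentration per group and a log2 fold. Per the file headers there are further a p-value, an FDR and the number of libraries with the peak called. The authors' log2 fold subtracted βKO from control, or after from before, and its sign was turned here. Library-level values were not analysed here, so depth is unknown and the SE implied by a p-value is the only measure of spread. Nothing in the labels ties libraries to days or batches, so none was examined.

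Rows repeating a position were counted once. The SE was the change divided by the normal deviate of its p-value. Where p was 0.5 or more or the change under 0.1, it was the median of its bin of 20 concentration bins. Tests relative to the table median and of the interaction (peaks sharing at least 1 bp) were approximate normal tests with Benjamini-Hochberg adjustment over all peaks. They were run on simulated data with normal errors of the implied SE, which does not check that SE. The shifts planted there were larger than the members' differences from the table median. Members were set beside peaks of the same 1 of 4 annotation classes and 1 of 10 bins of concentration, or of the class alone where under 20 peaks were left, as a description. A group's level was not on the same scale in the tables that hold it. At member peaks βKO islets before PPx read 0.23 higher, and control islets before PPx 0.18 higher, where genotypes were compared than where times were compared.

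The members, lists, motifs and tests were chosen with earlier results of these data known. The genes named are the member peaks past the FDR, the strongest peak and the largest and smallest change of each complex after PPx, the core subunits, the peaks away from promoters and the listed pathway genes past the FDR. Ndufa10, Ndufb4, Phf14, Zmat5, Lrrc41, Eef1b2, Gabpa, the genes of the YY1 sites and the markers were named outside that rule after their values were seen. The values of 1 called member are not reported here, and it is left out of the plot of levels. Python 3.11.15 with pandas 2.3.3, numpy 2.4.6 and scipy 1.17.1 was used. Alternatives changed the FDR, the adjustment, the set of peaks, the matching, the centre and the SE.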

Additional observations from a re-analysis of the deposited data

How the results depend on the processing

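Between genotypes after PPx, the 10 member peaks past the FDR became 0 at an FDR of 0.01, 23 at 0.1 and 2 (Uqcrq and Ndufaf7) with Benjamini-Hochberg adjustment of the p-values over all listed peaks. Between times in βKO islets, 6 became 0 at 0.01 and 28 at 0.1. The single peak past the test relative to the table median became 0 against peaks of like concentration and class, 2 as deposited and 0 with a larger SE. The other 58 alternatives of these and the remaining summary results left counts within 1.5 times and medians within their spread. The sign of some medians near zero did change. Between genotypes before PPx the members' median relative to like peaks was −0.125. It was 0.045 at peaks at or above the median concentration and −0.25 for subunits only. After PPx the value of −0.07 became 0.02 when set against the median of all listed peaks. At the named peaks, 25 values were no longer past the threshold under the stricter FDR or the other adjustment, and 7 still were. These alternatives leave the change itself as it was, so its direction could not differ. Calls at an FDR near 0.05 therefore depend on the adjustment, whose treatment of weak peaks is the authors'. No paired analysis was possible because the result comes from group values without libraries, and for the same reason no library could be left out. Precision at single peaks is limited by 3 or 4 mice per group, with median SEs of 0.37 to 0.48 at members.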
